A study of Arabidopsis thaliana with 18 samples.

Results

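The 93 genes described here are those of Arabidopsis seedlings whose mRNA rose under tunicamycin in both sets of libraries labelled as ire1 mutants while that of wild-type seedlings stayed nearly level. They were chosen from 27416 counted genes by their own values. Counts were divided by the library's total gene count and scaled to a common total of 1e+06 (CPM), averaged over 3 libraries, and compared as the log2 ratio of the mean in tunicamycin plus 1 to the mean in DMSO plus 1. A member had a change of at least 1 in ire1b and at least 1 in ire1a1b, a change between -0.3 and 0.3 in wild type, and a mean of at least 5 CPM in tunicamycin in both mutants. Since the rule used the tunicamycin responses, they are given as a description, and counts of members called on them are printed with nothing read from them. Of 265 genes that rose this far in both mutants whatever wild type did, these 93 were level in wild type, 86 changed by at least 1 there, 80 by 0.3 to 1, and 6 fell past -0.3. The opposite pattern, at least 1 in wild type and level in both mutants, was met by 2 genes.

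Seedlings were 7 days old and of 3 genotypes, wild type (WT), ire1b and the double mutant ire1a ire1b (ire1a1b), the labels giving no allele names. Each genotype was kept for 6 h in liquid MS medium with sucrose and either DMSO, the solvent, or tunicamycin at 5 µg/mL (TM), in 3 libraries per group and 18 in all. PolyA RNA of whole seedlings was sequenced paired-end (250 nt, per the labels), and the deposited tables held 1.63e+07 to 2.48e+07 gene counts per library. The labels do not say whether the 3 libraries of a group came from separate cultures, so p-values measure the spread between these libraries, which may be technical.

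Tunicamycin blocks the first step of N-glycan assembly, so that newly made glycoproteins misfold in the endoplasmic reticulum (ER). IRE1 is a membrane protein of the ER with a kinase and an endoribonuclease domain. When misfolded proteins accumulate, it splices the mRNA of the transcription factor bZIP60, which raises ER chaperone genes, and it also degrades mRNAs at the ER surface. In Arabidopsis IRE1 is encoded by IRE1A and IRE1B, and IRE1B has been linked to autophagy during ER stress.

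IRE1A (AT2G17520) stood at 19.8 to 24.3 CPM in the 6 libraries labelled ire1a1b and at 78.6 to 98.9 CPM in the other 12. IRE1B (AT5G24360) was not lower in the libraries labelled ire1b or ire1a1b, at 34.4 to 46.8 CPM against 29.7 to 37.1 CPM in WT, so its whole-gene count did not check that label. Replicate 1 of WT and of ire1a1b, in both treatments, stood apart from the other 14 libraries on the second principal component. Values without these 4 outlying libraries, an alternative added after seeing the data, are given beside some counts and changes. A count or change printed without such a value may have moved as well. The 4 root markers examined summed to 3272 to 4565 CPM in DMSO and to 1013 to 2538 CPM in TM, and all 4 passed the test as lower in each genotype, whereas the 4 green shoot markers summed to 9236 to 15730 CPM over all libraries and none passed. The 3 seed storage markers summed to at most 127 CPM, in replicate 2 of ire1a1b in TM. In RNA of whole seedlings, fewer cells of a type and less RNA per cell cannot be told apart, and the part of the root decline in the members' values was not tested.

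The members formed a small share of the mRNA that grew about 3-fold in the mutants. Together they summed to 2930 to 3555 CPM in the 9 DMSO libraries of all genotypes. In TM the sum was 3200 to 3958 CPM in WT, 9495 to 10720 CPM in ire1b and 9603 to 10517 CPM in ire1a1b. All 6 mutant TM libraries lay above all others, while the WT TM and DMSO ranges overlapped. The median change of the members was 0.14 in WT (from -0.28 to 0.30), 1.51 in ire1b (1.02 to 4.07, a median 2.85-fold) and 1.54 in ire1a1b (1.00 to 3.83, 2.90-fold). Over the 16180 genes with at least 5 CPM in a group the medians were -0.02, -0.05 and -0.08. In WT 69 members had a change above 0 and 24 below.

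**Figure D1:**
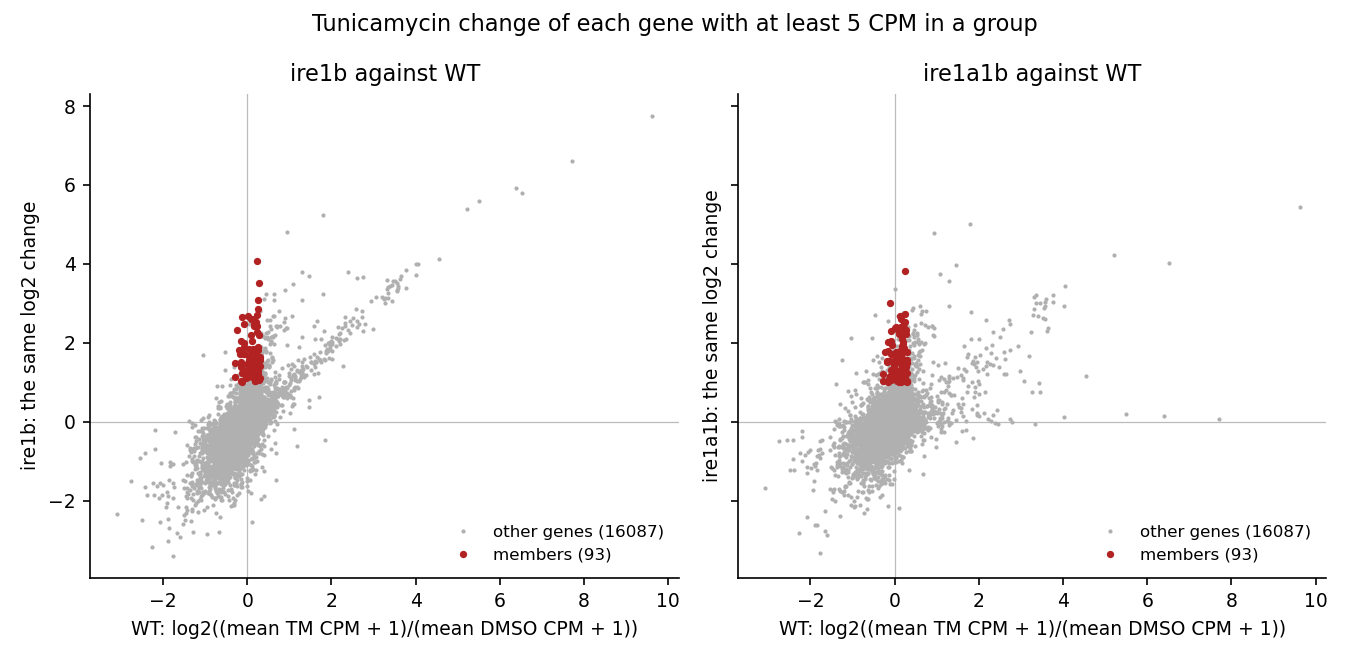
Log2 change in tunicamycin of each gene with at least 5 CPM in a group, in WT (horizontal axis) against ire1b (left) or ire1a1b (right); red points are the 93 members and grey points all other genes. The members fill a narrow column around 0 in WT that starts at a change of 1 in each mutant and reaches 4.07 in ire1b and 3.83 in ire1a1b.

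Library by library, the 3 WT libraries in TM lay above the 3 in DMSO for 14 members (10.9% of the 20615 tested genes did so) and below them for 0 (12.7% of tested genes). The 6 mutant TM libraries lay above all the other 12 for 91 of the 93 members (3.35% of tested genes), the exceptions being AT2G38240, an oxygenase of the 2-oxoglutarate and Fe(II) class, and AT1G53633, an uncharacterized protein. Between libraries of the same replicate number, each member rose in each of the 3 pairs in both mutants, and by at least 1 for 85 to 90 of the 93 depending on the pair.

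All 93 members passed the filter on low counts. Counted with edgeR over all tested genes at an adjusted p below 0.05, 92 members were called higher in TM in ire1b (10.9% of tested genes) and 92 in ire1a1b (8.27%). AT4G39670, a glycolipid transfer protein family gene, was the one not called in either. The response was called larger than that of WT for 75 members in ire1b (2.55% of tested genes) and for 79 in ire1a1b (3.7%). All these contrasts were used to choose the members, so nothing is read from the counts. In WT itself 6 members were called higher (6.13% of tested genes), namely SCL3, PME1, AT2G37050, VAMP724, ASG1 and ANNAT2, with WT changes of 0.19 to 0.30. With replicate number as a block 12 were (9.71% of tested genes). With the 4 libraries that stood apart left out, 8 were (7.96% of tested genes).

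Mean levels of the members without tunicamycin differed little between WT and the mutants. The log2 ratio of the WT mean to the mean of both mutants in DMSO had a median of -0.02 over the members, ran from -0.46 to 0.42, and lay within 0.3 of 0 for 86 of 93. It was highest for AT2G38240, ICL and SNRK2-8, and lowest for AT1G53633 and AT2G42480, a MATH domain gene. The first 3 were higher in DMSO in replicate 1 of both WT and ire1a1b than in all other DMSO libraries. WT and the mutants were not compared by a test in DMSO. The share of all genes within 0.3 is not given here, so nothing particular to the members is read from these ratios.

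The largest changes belonged to a kinase. SNRK2-8 (AT1G78290, chr1:29457205-29459493, TAIR10.1) encodes a member of the SnRK2 family of plant kinases, which are activated by osmotic stress. In WT it stood at 13.9, 4.24 and 4.39 CPM in DMSO and at 12.4, 7.03 and 7.76 CPM in TM. In ire1b it went from 5.38, 4.08 and 4.65 CPM to 103, 87.4 and 94.9 CPM, a change of 4.07. Libraries labelled ire1a1b held 11.4, 4.19 and 4.09 CPM in DMSO and 155, 78.7 and 85.9 CPM in TM, a change of 3.83. The 6 mutant TM libraries were far above the other 12, and replicate 1 of WT and of ire1a1b was high in DMSO. With replicate 1 of WT and ire1a1b left out, the change was 0.66 in WT and 4.02 in ire1a1b. SNRK2.3, 1 of the kinases that carry abscisic acid signals, reached 41.5 to 44.8 CPM in ire1b and 40.2 to 57.1 CPM in ire1a1b in TM, from 15.1 to 22.4 CPM in all DMSO libraries, with changes of 1.28 and 1.32. SNRK2.10, a relative activated by salt and osmotic stress, changed by 1.39 and 1.24, from 73.3 to 90.8 CPM in DMSO to 182 to 219 CPM in the mutants in TM. For both, WT TM libraries lay at most slightly above the DMSO range, with a WT change of 0.14 each.

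The remaining kinases among the members were a protein kinase of no named group, AT2G39110 (changes 1.71 and 1.71), and the leucine-rich repeat receptor kinases AT2G37050 (1.65 and 1.77) and AT3G03770 (1.46 and 1.01). Of the other 7 SnRK2 genes, 1 was called higher in ire1b (OST1) and 3 lower, 0 higher and 2 lower in ire1a1b, and 0 higher and 1 lower in WT; without replicate 1 of WT and ire1a1b, 1 was called higher in ire1a1b. SNRK2.7 moved the opposite way, from 8.26 to 9.12 CPM in DMSO to 2.34 to 2.64 CPM in TM in ire1b, with no overlap. SNRK2.2, a close relative of SNRK2.3, had changes of -0.12 in WT, -0.11 in ire1b and 0.01 in ire1a1b. This family and those below were picked after the members' values were seen.

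**Figure D2:**
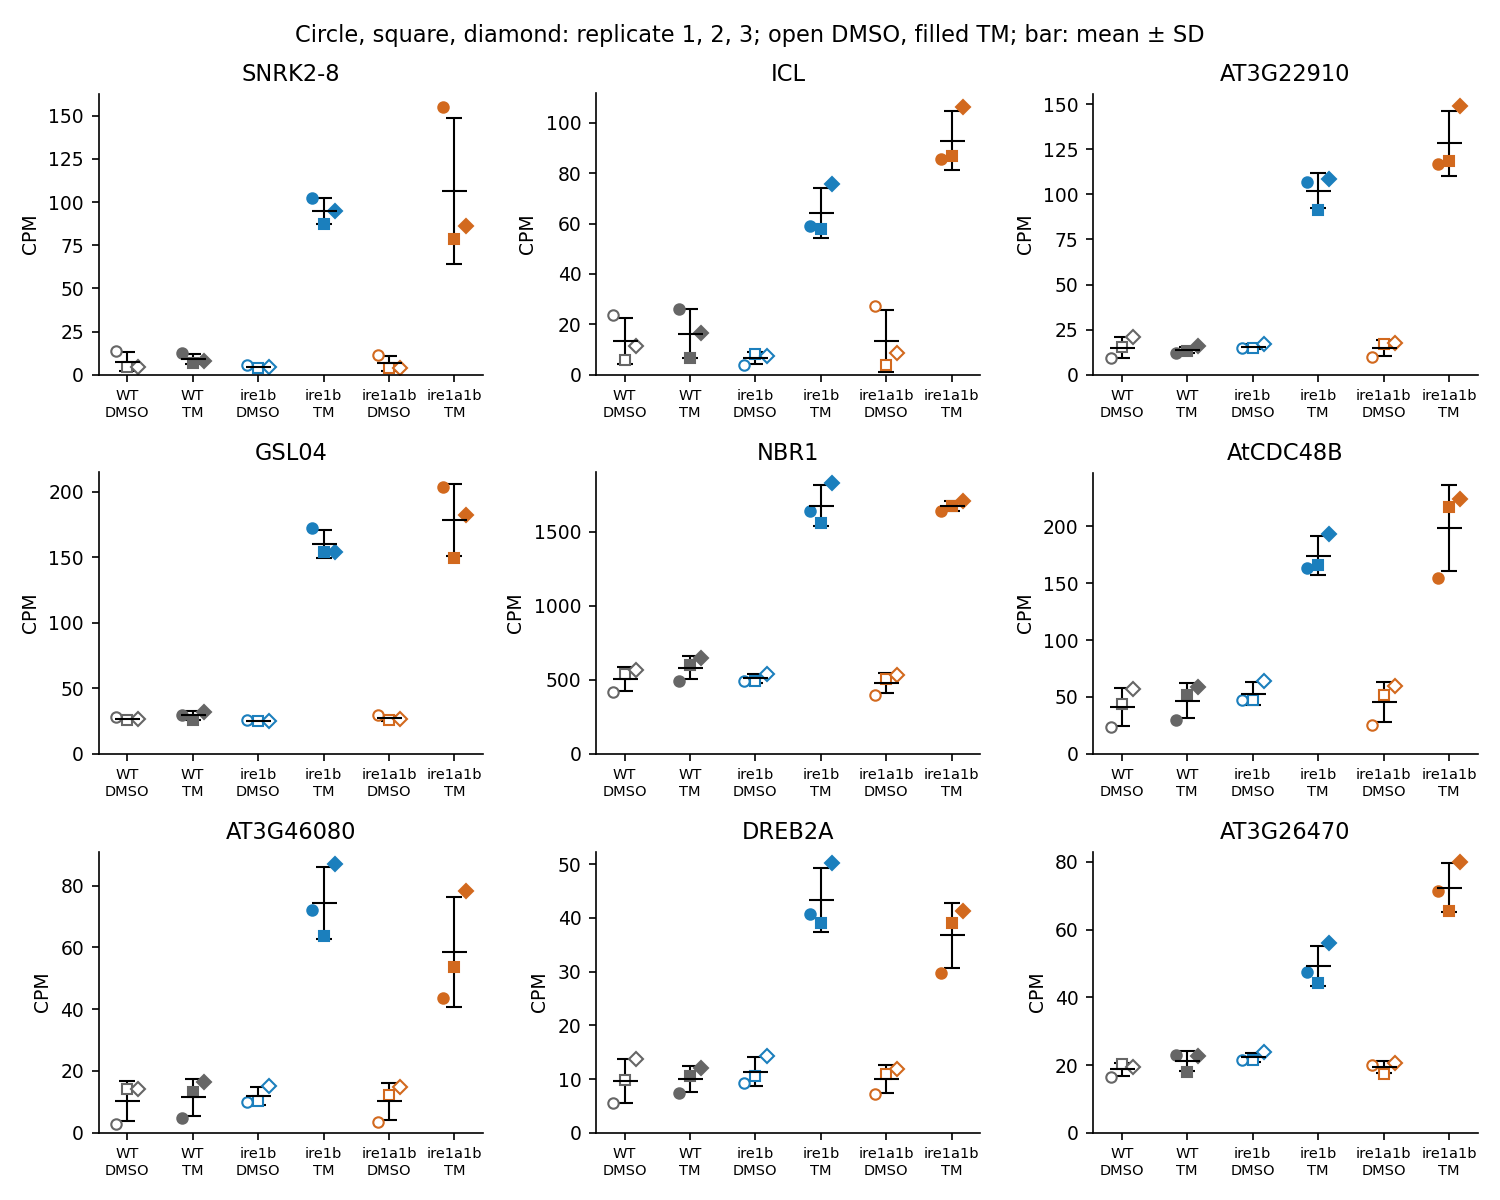
CPM of 9 members in each of the 18 libraries (vertical axes start at 0), grouped by genotype and treatment; open symbols are DMSO, filled symbols TM, circles, squares and diamonds replicates 1, 2 and 3, and bars the mean ± SD of 3 libraries. In all 9 panels the 6 mutant TM libraries lie above the other 12, and replicate 1 of WT and ire1a1b is the highest of its DMSO group for SNRK2-8, ICL and, by a small margin, GSL04, and the lowest for AT3G22910, NBR1, AtCDC48B, AT3G46080 and DREB2A.

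Genes for callose and the cell wall made up 10 members. Callose is a glucan laid down at plasmodesmata, at new cell plates and at sites of wounding or attack, and is made by the glucan synthase-like (GSL) enzymes. GSL04 (AT3G14570, chr3:4892410-4902880) held 25.5 to 27.8 CPM in WT in DMSO and 25.9 to 32.1 CPM in TM. It rose in ire1b from 26.0, 25.4 and 24.7 CPM to 173, 154 and 154 CPM (change 2.61) and in ire1a1b from 29.2, 25.4 and 26.3 CPM to 204, 149 and 182 CPM (2.68). GSL11 (AT3G59100) went from 44.9 to 50.6 CPM in all DMSO libraries to 198 to 248 CPM in ire1b and 194 to 257 CPM in ire1a1b, while WT TM libraries held 46.3 to 57.5 CPM. In both genes all 6 mutant TM libraries were far above the other 12.

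Broadly expressed callose synthases were members as well. GSL8 (AT2G36850), which is needed for callose at the cell plate, stood at 177 to 207 CPM in all WT libraries and at 189 to 201 CPM in DMSO in the mutants, and at 433 to 474 CPM and 454 to 528 CPM in TM in ire1b and ire1a1b (changes 1.22 and 1.36). GSL12 (AT5G13000), known for callose at plasmodesmata, was at 149 to 180 CPM in DMSO and at 325 to 383 CPM in TM in the mutants (1.14 and 1.10). Their WT changes were -0.02 and -0.03.

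Callose synthase genes outside the members moved alike in part. Of the other 10 genes of the family, 9 were tested; 4 were called higher in ire1b and 4 in ire1a1b, and in WT 0 were called higher and 1 lower (GSL10). GSL05, the enzyme of wound and pathogen callose, went in ire1b from 134, 151 and 145 CPM to 233, 241 and 267 CPM and in ire1a1b from 131, 142 and 147 CPM to 240, 254 and 274 CPM, changes of 0.78 and 0.87 that miss the rule's threshold of 1. GSL10 changed by -0.25 in WT, 0.61 in ire1b and 0.84 in ire1a1b. The short annotated gene AT3G14780, with changes of 2.17 and 2.06, was no member because its WT change was 0.34, and GSL09, at 1.06 and 1.10, because of its low level. CALS1 and GSL03, with changes of -0.35 and -0.13 in ire1b, did not rise.

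**Figure D3:**
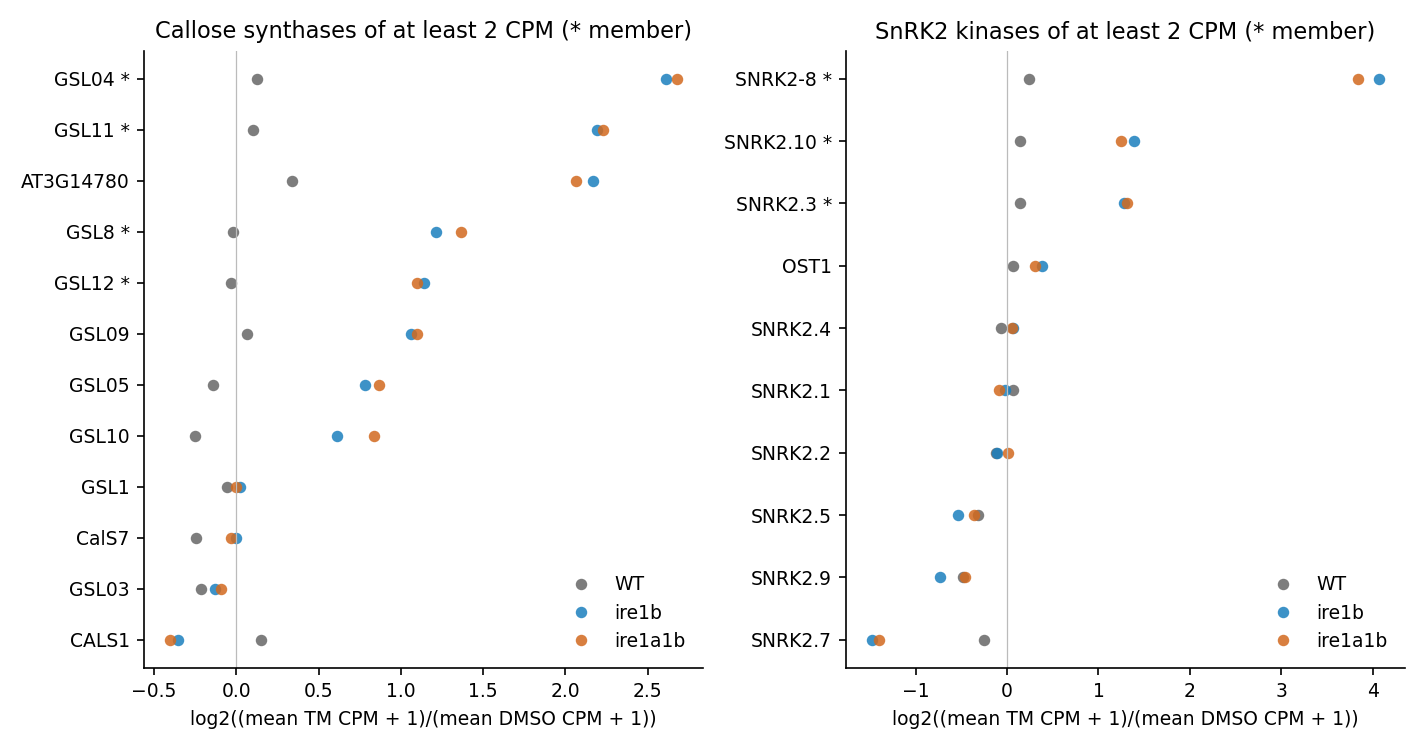
Log2 change in tunicamycin of callose synthase genes (left) and SnRK2 kinase genes (right) with at least 2 CPM in a group, in WT (grey), ire1b (blue) and ire1a1b (orange); stars mark the members. Of the 12 callose synthases plotted, 8 lie at a change of 0.61 or more in both mutants, with WT between -0.25 and 0.34, while of the SnRK2 genes the 3 members stand above the others and SNRK2.7 lies at -1.48 and -1.40 in the mutants.

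The other cell wall members were AT5G15870 of glycosyl hydrolase family 81, whose enzymes cut the kind of glucan that callose is made of (1.58 and 1.49), AT1G26450 with a carbohydrate-binding X8 domain (1.32 and 1.02), the glycosyltransferase AT1G12990 (1.57 and 1.24), the arabinogalactan protein FLA12 (1.51 and 1.80), the hydroxyproline-rich protein AT4G16790 (1.69 and 1.22) and PME1, a pectin methylesterase (1.03 and 1.25). In each, all 6 mutant TM libraries exceeded the other 12.

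Protein breakdown and quality control gave 8 members. NBR1 (AT4G24690, chr4:12741032-12744670), the receptor that carries ubiquitinated aggregates into autophagosomes, stood at 415, 541 and 566 CPM in WT in DMSO and at 495, 601 and 650 CPM in TM, ranges that overlap. It went in ire1b from 494, 493 and 542 CPM to 1640, 1560 and 1830 CPM, and in ire1a1b from 398, 507 and 529 CPM to 1640, 1672 and 1710 CPM, changes of 1.72 and 1.81. Its lowest mutant TM library, at 1560 CPM, compares with at most 650 CPM in the other 12. AtCDC48B (AT3G53230), of the AAA ATPases that pull ubiquitinated proteins from membranes and complexes, reached 163, 166 and 194 CPM in ire1b and 155, 217 and 224 CPM in ire1a1b in TM, against 23.1 to 64.4 CPM in all other libraries. PMZ (AT3G28210), an AN1 zinc finger protein, reached 79.1 to 137 CPM in the mutants against 8.57 to 49.3 CPM elsewhere.

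Ubiquitin ligases among these were PUB54 (changes 1.85 and 2.40), AT3G61390 of the same U-box class (1.90 and 2.52) and RGLG1, a RING ligase (1.13 and 1.04). PUB54 was low, at 4.93 to 6.41 CPM in ire1b and 8.61 to 15.9 CPM in ire1a1b in TM. The proteases were the subtilase AT4G10510, at 5.12 to 7.54 CPM in the mutants in TM against 0.566 to 2.69 CPM elsewhere, and the aspartyl protease AT5G22850, at 90.8 to 111 CPM against 37.7 to 51.0 CPM. NBR1 was the one member among 32 autophagy genes listed: of these, 3 were called higher in WT, 7 in ire1b and 8 in ire1a1b, and 0 lower, with median log2 differences of 0.09, 0.14 and 0.13 over the list. In the fit without the 4 outlying libraries, 3 were called higher in WT, 13 in ire1b and 9 in ire1a1b, and 0, 1 and 0 lower. ATG8D, a conjugating protein of the autophagosome membrane, went on average from 17.3 to 61.1 CPM in ire1b (change 1.76) and from 17.1 to 56.8 CPM in ire1a1b (1.67), and was no member because of a WT change of 0.45. ATG13B, a subunit of the kinase complex that starts autophagy, changed by 0.38 in WT, 1.23 in ire1b and 0.94 in ire1a1b.

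Transcription factors numbered 15. DREB2A (AT5G05410), an activator of drought and heat genes, held 5.52 to 14.3 CPM in all WT and DMSO libraries and reached 40.8, 39.0 and 50.1 CPM in ire1b and 29.8, 39.1 and 41.3 CPM in ire1a1b in TM (1.84 and 1.78). HSFA3 (AT5G03720), a heat shock factor that DREB2A activates during heat, reached 33.8 to 43.3 CPM in ire1b and 31.9 to 42.4 CPM in ire1a1b, against 8.77 to 17.2 CPM elsewhere (1.62 and 1.56). HSF3 (AT5G16820), a class A1 heat shock factor, rose from 7.67 to 13.3 CPM in DMSO to 28.7 to 30.8 CPM and 24.6 to 26.8 CPM (1.50 and 1.28), with WT TM at 12.6 to 15.6 CPM. The mutant TM libraries of all 3 were clear of the rest.

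Of the other 19 heat shock factor genes 17 were tested, and 3 were called higher in WT, 4 in ire1b and 6 in ire1a1b, with 0 lower. When the 4 outlying libraries were left out, 3 were higher and 2 lower in WT, 6 and 1 in ire1b, and 6 and 0 in ire1a1b. HSFA1E, a further class A1 factor, went from 4.51 to 5.27 CPM to 33.6 to 35.0 CPM in ire1b (2.58) and changed by 2.26 in ire1a1b, and was kept out by a WT change of 0.53, while HSF1 of the same class held between 6.79 and 7.93 CPM in all 18 libraries. A list of cytosolic heat shock genes, of which HSFA2 and HSFA7A also belong to the factor family, gave other counts. Of 17 cytosolic heat shock genes listed, DREB2A among them, 0 were called in WT, 2 higher in ire1b and 15 higher in ire1a1b, with 0 lower and medians of -0.07, 0.68 and 1.74. With the 4 libraries that stood apart left out, the calls were 1 lower in WT, 12 higher in ire1b (16.2% of tested genes) and 14 higher in ire1a1b (9.71%). HSP101, the disaggregase of heat-stressed plants, had changes of 0.00, 0.35 and 1.23.

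Zinc finger factors included AT3G46080 and ZAT7 (AT3G46090), neighbours on chromosome 3 with 2581 bases and 1 locus between them. AT3G46080 stood at 2.70, 14.1 and 14.2 CPM in WT in DMSO and at 4.90, 13.2 and 16.6 CPM in TM; it reached 72.0, 63.9 and 86.8 CPM in ire1b and 43.7, 53.7 and 78.2 CPM in ire1a1b. ZAT7, a transcriptional repressor, reached 22.7, 21.4 and 24.1 CPM and 12.2, 17.3 and 20.1 CPM, against 0.609 to 4.10 CPM in the other 12 libraries. The changes were 2.55 and 2.40 for the first and 2.48 and 2.29 for the second. Their coding sequences are 88.2% identical with a longest shared run of 44 bases, and how the counting treated a read that matched both is not given in the sources used here. AT3G46070, a relative beside them, was at or below 0.107 CPM in each group.

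Further factors were AT1G49900, a zinc finger gene (2.69 and 2.40), MAF4, a MADS-box repressor of flowering (2.60 and 2.32), WRKY50 (2.54 and 1.98), NAC094, NAC001 and NAC044 (1.76 to 2.33, 1.46 to 1.62 and 1.18 to 1.50 over both mutants), WOX11, which acts in root founder cells (1.79 and 1.63), the homeodomain-like AT5G01380 (1.71 and 1.53), TRFL3 (1.45 and 1.21) and SCL3, a GRAS protein of gibberellin signalling (1.12 and 1.00).

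Upstream sequence of the members was examined as a description, since the rule itself set the change they share. In the 250 bases before the annotated gene start (TAIR10.1, all 93 members against 26709 counted protein-coding genes), the letters GAANNTTC, the core of the heat shock element and its own reverse complement, occurred before 18 members (19.4%) and before 9.47% of all genes. Other motifs, searched on both strands, were nearer to their background. The W-box core TTGAC was found before 52.7% of members and 45.0% of genes, the abscisic acid response core ACGTG before 25.8% and 23.1%, and the as-1 core TGACG before 14.0% and 18.6%. Of the rest, the mitochondrial dysfunction motif stood before 11.8% and 7.91%, the evening element core AATATCT before 15.1% and 10.1%, CACGTG (which holds ACGTG) before 5.38% and 6.58%, and CCACG, the end of the ER stress element, before 11.8% and 15.0%. A match is a string of letters, not a shown binding site, the shares were not tested, and GAANNTTC was picked for display after they were seen. The 18 members with a GAANNTTC match had median changes of 0.09 in WT, 1.82 in ire1b and 1.74 in ire1a1b, and the other 75 had 0.14, 1.46 and 1.49.

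The 5 sequences below are shown because they belong to the members with that match whose smaller mutant change was largest, among them the neighbouring zinc finger genes. Each runs 5′ to 3′ along the gene's strand, which is the minus strand in all 5, and ends at the base before the annotated start; capitals mark GAANNTTC. The windows are chr3:8119491-8119740, chr1:4571230-4571479, chr3:16923300-16923549, chr3:16926884-16927133 and chr5:9148392-9148641 of TAIR10.1, and no other annotated locus overlaps them.
AT3G22910: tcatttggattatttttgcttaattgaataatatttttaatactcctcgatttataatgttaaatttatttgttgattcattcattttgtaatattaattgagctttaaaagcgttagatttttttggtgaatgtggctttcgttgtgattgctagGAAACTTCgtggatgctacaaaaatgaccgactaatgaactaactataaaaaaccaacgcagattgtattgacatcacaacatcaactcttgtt
AT1G13340: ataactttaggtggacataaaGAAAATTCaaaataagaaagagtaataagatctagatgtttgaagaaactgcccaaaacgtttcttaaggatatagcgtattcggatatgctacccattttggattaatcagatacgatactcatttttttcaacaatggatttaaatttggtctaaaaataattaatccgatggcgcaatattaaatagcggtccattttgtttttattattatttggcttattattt
AT3G46080: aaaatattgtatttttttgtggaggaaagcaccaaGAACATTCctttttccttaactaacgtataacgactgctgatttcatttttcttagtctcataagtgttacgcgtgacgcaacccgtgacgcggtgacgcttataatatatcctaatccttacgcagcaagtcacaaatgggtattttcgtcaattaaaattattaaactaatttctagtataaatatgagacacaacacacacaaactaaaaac
ZAT7: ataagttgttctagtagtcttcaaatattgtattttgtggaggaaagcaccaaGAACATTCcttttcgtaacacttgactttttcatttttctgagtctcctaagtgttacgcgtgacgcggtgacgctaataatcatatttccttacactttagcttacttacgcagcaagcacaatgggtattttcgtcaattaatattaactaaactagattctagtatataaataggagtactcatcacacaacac
WRKY50: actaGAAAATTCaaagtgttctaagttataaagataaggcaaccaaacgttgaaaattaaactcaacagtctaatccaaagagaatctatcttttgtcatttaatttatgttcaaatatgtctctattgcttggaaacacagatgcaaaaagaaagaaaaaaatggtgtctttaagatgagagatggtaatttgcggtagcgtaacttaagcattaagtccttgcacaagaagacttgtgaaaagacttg

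The match lies 215 to 208 bases before the start of AT3G46080 and 197 to 190 bases before that of ZAT7, with the same letters, GAACATTC, and the 2 windows are 67.7% identical when aligned. Before AT3G22910 it lies nearest to the start, at 94 to 87 bases.

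Transport proteins included 2 of the largest changes. AT3G22910 (chr3:8116292-8119490), annotated as a P-type (E1-E2) ATPase, a class of pumps for cations or lipids, held 9.09, 15.1 and 20.7 CPM in WT in DMSO and 12.3, 13.0 and 15.9 CPM in TM. It rose to 107, 91.2 and 109 CPM in ire1b and to 117, 119 and 149 CPM in ire1a1b, from 9.96 to 17.9 CPM in their DMSO libraries, with changes of 2.65 and 3.02. AT1G71140 (chr1:26824564-26826914), a MATE efflux carrier, went from 5.16, 6.09 and 7.46 CPM to 80.6, 66.7 and 97.4 CPM in ire1b and from 4.98, 6.35 and 7.64 CPM to 20.1, 30.6 and 56.1 CPM in ire1a1b. All mutant TM libraries of both genes exceeded the others, and for AT1G71140 those of ire1a1b lay below those of ire1b. ABCB11 (AT1G02520), of the P-glycoprotein transporters, reached 529 to 622 CPM in ire1b and 344 to 570 CPM in ire1a1b against 53.6 to 195 CPM elsewhere (1.90 and 1.96). The cation/H+ exchanger CHX18 (1.33 and 1.56), the major facilitator AT4G34950 (1.15 and 1.10) and the P-type ATPase AT1G17500 (1.04 and 1.08) completed the group.

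Metabolic enzymes were the largest named group, with 18 members. ICL (AT3G21720, chr3:7652487-7656053), the isocitrate lyase of the glyoxylate cycle that lets seedlings turn stored oil into sugar, stood at 23.6, 5.77 and 11.3 CPM in WT in DMSO and at 25.9, 6.54 and 16.4 CPM in TM. It went in ire1b from 4.02, 8.40 and 7.59 CPM to 59.1, 57.7 and 75.7 CPM and in ire1a1b from 27.2, 3.75 and 8.82 CPM to 85.7, 86.8 and 106 CPM, changes of 3.09 and 2.72. Replicate 1 of WT and of ire1a1b was the highest in DMSO, yet all 6 mutant TM libraries were above it. Without those replicate 1 libraries the change was 0.39 in WT and 3.74 in ire1a1b. CT-BMY (AT4G17090), a plastid beta-amylase that breaks down starch, reached 179 to 277 CPM in ire1b and 183 to 310 CPM in ire1a1b against 23.7 to 80.8 CPM elsewhere (2.85 and 2.23).

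Enzymes of defence compounds and pigments were CYP81F3, which modifies indole glucosinolates (2.69 and 2.51), and CLH2, a chlorophyllase (2.44 and 2.29). CYP81F3 stood at 47.2 to 54.6 CPM in ire1b and 37.3 to 52.2 CPM in ire1a1b in TM and at 3.83 to 9.47 CPM elsewhere. GA3OX1 (AT1G15550), which makes bioactive gibberellin, rose from 4.32 to 5.67 CPM in all DMSO libraries to 24.6 to 29.2 CPM in ire1b and 28.6 to 34.0 CPM in ire1a1b, with WT TM at 5.96 to 7.34 CPM. AT5G51920, a pyridoxal phosphate-dependent transferase, changed by 2.19 and 2.22, the alpha/beta-hydrolase AT1G27480 by 2.00 and 2.06, and AT2G38240 by 2.06 and 2.02. The other 10 enzymes ran from the purple acid phosphatase PAP18 (1.68 and 1.69) to the acid phosphatase AT1G09870 (1.14 and 1.02), among them the phospholipase PLA2-BETA, the esterase MES5 and BAS, a terpenoid cyclase.

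Membrane traffic and membrane-binding proteins numbered 8. AT1G13340, annotated as a regulator of Vps4, an ATPase of multivesicular body formation, reached 89.3, 84.9 and 115 CPM in ire1b and 91.2, 95.6 and 111 CPM in ire1a1b against 3.52 to 24.9 CPM elsewhere (2.47 and 2.61). The annexins ANNAT7 (2.43 and 1.75) and ANNAT2 (1.45 and 1.32) bind membranes in a calcium-dependent way; of the other 6 annexin genes 4 were tested, and 0 were called higher in either mutant. SYP42, a syntaxin of the trans-Golgi network, VAMP724, a vesicle SNARE, and SEC1B, of the Sec1/Munc18 proteins that act with such SNAREs, changed by 1.21 and 1.04, 1.21 and 1.03, and 1.02 and 1.16. The tetraspanin TET5 (1.40 and 1.53) and AT4G39670 (1.11 and 1.25) were the others.

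Immune and calcium signalling gave 5 members: the disease resistance genes WRR4, of the TIR-NBS-LRR receptors (1.14 and 1.42), and AT3G26470, with an RPW8 domain (1.11 and 1.85), the EF-hand protein AT5G39670 (1.48 and 2.37), the calmodulin-binding AT5G39380 (1.36 and 1.38) and SAG101, a lipase-like partner of EDS1 in immunity (1.06 and 1.33). SAG101 was the one member among 17 tested leaf senescence genes, of which 0 were called higher in WT and 3 in each mutant, and 1 lower in WT, 2 in ire1b and 0 in ire1a1b. In the fit without the 4 outlying libraries, 16 were tested, with 0, 4 and 3 higher and 4, 7 and 1 lower in WT, ire1b and ire1a1b. The last 17 members have other or unknown roles, such as RCI2A, a small membrane protein of cold and salt stress (1.22 and 1.03), and TIL, a lipocalin induced by temperature stress (1.25 and 1.55).

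**Figure D4:**
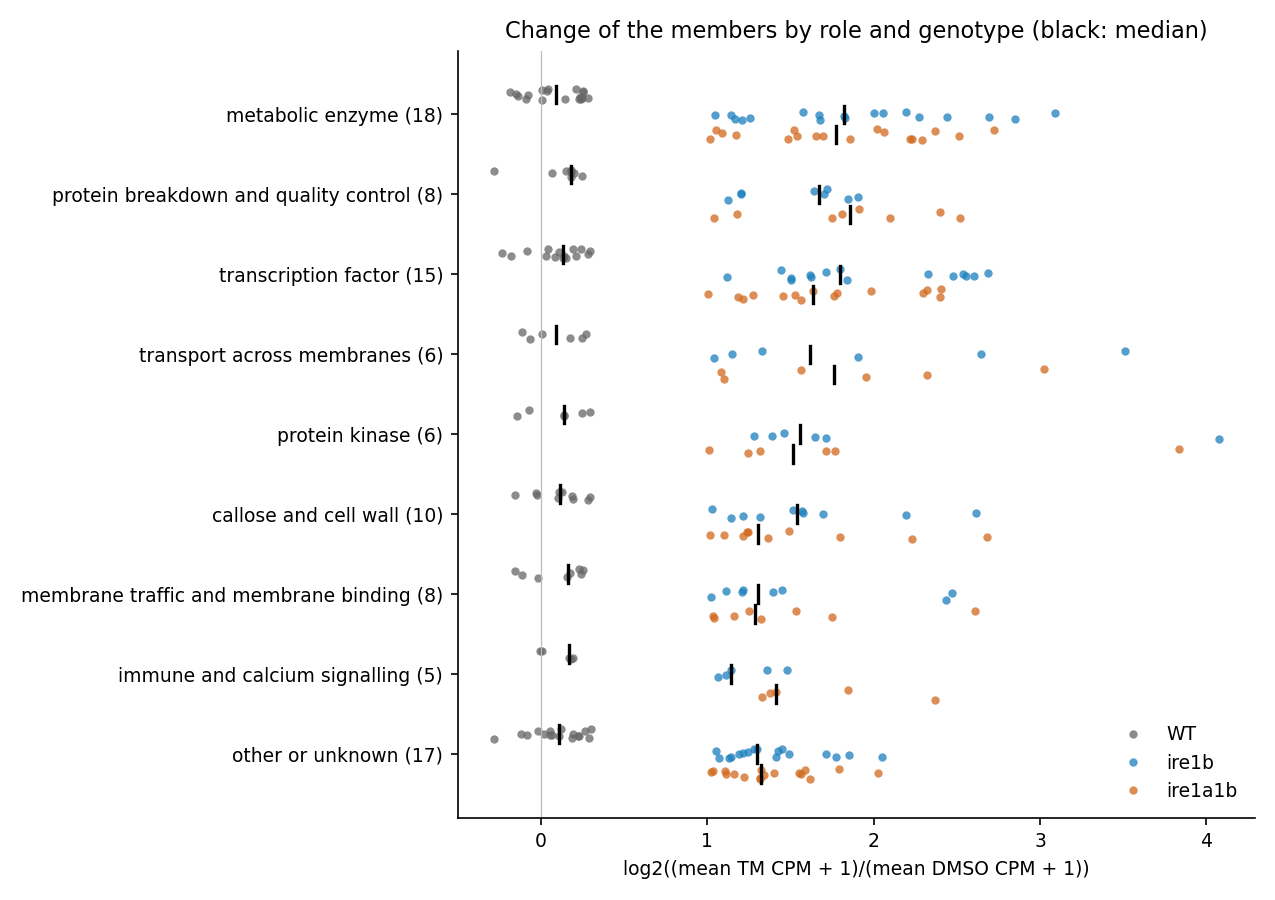
Log2 change in tunicamycin of each member (points) in WT (grey), ire1b (blue) and ire1a1b (orange), by role, with the number of members in each; black marks are medians. Medians in the mutants run from 1.14 to 1.82 in ire1b and from 1.29 to 1.86 in ire1a1b, and the roles overlap.

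The 13 gene lists examined, 10 of pathways and 3 of tissue markers, held 222 genes, of which 3 were members (NBR1, DREB2A and SAG101). Of 27 ER folding and unfolded protein response genes, 0 were members: 25 were called higher in WT, 24 in ire1b and 22 in ire1a1b, and 1, 1 and 0 lower, with median log2 differences of 2.78, 2.76 and 2.44. Abscisic acid and osmotic response genes, 24 tested, were called higher for 2 in WT, 3 in ire1b and 2 in ire1a1b and lower for 1, 2 and 0, beside the 3 SnRK2 kinases described above. When the 4 outlying libraries were left out, the counts were 2, 5 and 3 higher and 1, 2 and 1 lower. Detoxification genes, 18 tested, were called higher for 1, 2 and 4 and lower for 0, and without those libraries higher for 1, 4 and 4 and lower for 3, 5 and 2.

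Salicylate and camalexin genes, 21 tested, were called higher for 1 in WT, 1 in ire1b and 4 in ire1a1b and lower for 0, 2 and 1, and without those libraries higher for 1, 1 and 6 and lower for 3, 7 and 4. Jasmonate genes, 17 tested, were called higher for 0, 2 and 1 and lower for 2, 4 and 4. The sugar starvation list (21 genes) and the mitochondrial retrograde list (11 genes) had 0 genes called in any genotype. With the 4 libraries that stood apart left out, they had 0 and 0 genes higher in WT, 1 and 2 in ire1b and 1 and 1 in ire1a1b, and 1 and 0, 4 and 3, and 0 and 1 lower. Counts for lists and families are not given with replicate number as a block. Over all tested genes that block raised the calls from 2453 to 4142 in WT and from 3064 to 4844 in ire1a1b. Low list counts may therefore partly reflect the fit without it.

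The direct difference between the double mutant and ire1b was tested. The rule did not use that difference, but by asking for a change of at least 1 in each mutant it leaves out genes raised in one of them and limits how far the members can differ, so a low count is not read as the mutants acting alike. In DMSO 0 of 93 members were called different by edgeR's quasi-likelihood test (0.16% of tested genes, 33, were), with 4 members at an unadjusted p below 0.05 and 0 called by DESeq2 or with a replicate block. In TM 4 of 93 were called, against 2.74% of tested genes (564), and 16 had an unadjusted p below 0.05. The share of all tested genes below that unadjusted p was not counted, so nothing is read from the unadjusted counts in DMSO or TM. The members' median log2 difference was -0.07, from -1.22 to 1.14. With replicate number as a block, 12 members were called (7 higher and 5 lower in ire1a1b) against 5.76% of tested genes (1187). DESeq2 called 7 members and 775 of all tested genes. Leaving out single libraries gave 0 to 3 members and 344 to 441 of all tested genes. In the fit without the 4 outlying libraries, 0 were called in DMSO (0.165% of tested genes) and 7 in TM (3.97%), 5 higher and 2 lower in ire1a1b.

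AT3G26470 was higher in the double mutant, at 71.5, 65.6 and 79.9 CPM against 47.5, 44.3 and 55.9 CPM in ire1b, a log2 difference of 0.54 ± 0.11 (SE, edgeR adjusted p = 0.015). PME1 was higher as well, at 195, 177 and 172 CPM against 151, 149 and 152 CPM (0.25 ± 0.06, edgeR adjusted p = 0.021). For both genes the 3 libraries of ire1a1b were above the 3 of ire1b. AT4G16790 was lower in ire1a1b, at 41.1, 37.6 and 39.8 CPM against 49.8, 48.5 and 52.2 CPM (-0.36 ± 0.08, edgeR adjusted p = 0.019), and so was WRKY50, at 11.4, 14.5 and 16.0 CPM against 19.5, 18.5 and 23.2 CPM (-0.56 ± 0.14, edgeR adjusted p = 0.038). Again the groups did not overlap. None of the 4 calls held under each of 10 alternatives: AT3G26470 missed the threshold in 3 and the others in 5 each, with adjusted p from edgeR or DESeq2 of up to 0.093, 0.099, 0.098 and 0.2 in the order given. All 4 were called with replicate number as a block (edgeR adjusted p = 0.00056, 0.0093, 0.0085 and 0.0029 in the same order). DESeq2 called all 4 as well (DESeq2 adjusted p = 0.00064, 0.0002, 0.00033 and 0.016). In a further alternative, without the 4 replicate 1 libraries, the first 3 were called and WRKY50 was not (-0.42 ± 0.12, edgeR adjusted p = 0.061).

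Larger differences with wider errors did not pass. The log2 difference of ire1a1b from ire1b was -1.22 ± 0.34 for AT1G71140 (edgeR adjusted p = 0.087), 1.14 ± 0.40 for PUB54 (edgeR adjusted p = 0.19) and 0.73 ± 0.20 for AT5G39670 (edgeR adjusted p = 0.071). Without regard to a test, the 3 TM libraries of the mutants did not overlap for 28 members (20.4% of tested genes), 10 higher and 18 lower in ire1a1b, and overlapped for 65. Across the 93 members the changes in the mutants had a Pearson correlation of 0.86 and a Spearman correlation of 0.81, given as a description because the rule cuts both at 1. The change was larger in ire1b for 50 members and in ire1a1b for 43, and lay within 0.5 for 83. Among the 85 genes raised by at least 1 in all 3 genotypes, with a mean of at least 5 CPM in TM in each, 56 were called lower in ire1a1b than in ire1b in TM and 0 higher. Their median was -0.49. Of the 20615 tested genes, 315 were called lower and 249 higher. The difference between that count and the members' was not tested.

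**Figure D5:**
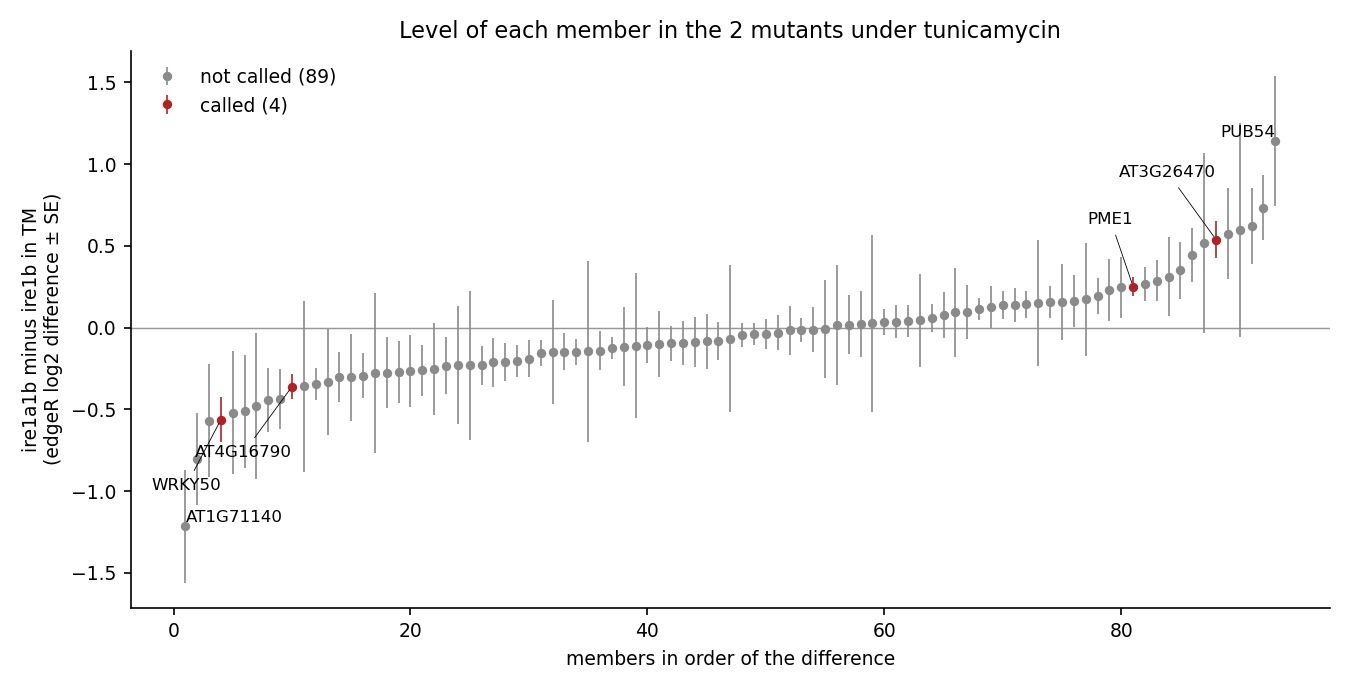
Difference between ire1a1b and ire1b in tunicamycin for each of the 93 members (edgeR log2 difference ± SE, 3 libraries per mutant), in rising order; red points are the 4 called at an adjusted p below 0.05. Most points lie within 0.5 of 0, and the ends, AT1G71140 at -1.22 and PUB54 at 1.14, have wide errors and are not called.

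Replicate 1 of WT and ire1a1b lay apart from the other libraries for many genes, members among them. In DMSO these 2 libraries both lay below the other 7 for 35 members (20.5% of genes with at least 5 CPM) and both above for 22 (34.8%). In TM, replicate 1 of WT lay below the other 2 WT libraries for 58 members (35.5%) and above them for 18 (43.6%), and replicate 1 of ire1a1b below its 2 for 35 (33.2%) and above for 35 (45.1%). A larger share of members than of those genes lay below in DMSO and in WT in TM, and a smaller share above. That difference was not tested. In the DMSO libraries of replicate 1 of WT and ire1a1b, PMZ was at 8.57 to 9.48 CPM against 32.4 to 43.9 CPM in the other 7. ICL was at 23.6 to 27.2 CPM against 3.75 to 11.3 CPM in the same DMSO libraries. With the 4 replicate 1 libraries of WT and ire1a1b left out, a choice made after seeing the data, 90 of the 93 members still changed by at least 1 in ire1a1b, with a lowest change of 0.99, and 79 stayed in the WT window, with WT changes from -0.43 to 0.66. Applied anew without them, the rule gave 88 genes, 76 of them shared.

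Members sat on all 5 chromosomes, 27, 6, 19, 13 and 28 from chromosome 1 to chromosome 5, against 6976, 4170, 5320, 4060 and 6193 counted loci. No member lay directly beside another. For 26 members a counted locus on the opposite strand overlaps the gene; whether counting used strand was not given in the sources used here, and reads in the shared part may belong to either gene. The values just inside and outside the thresholds were close: SEC1B at 1.02 and VSR1 at 0.997 in ire1b, SCL3 at 1.00 and AT1G65020 at 0.996 in ire1a1b, AT1G43910 at 0.298 and AT5G23350 at 0.301 at the upper WT limit, and AT5G64780 at -0.282 and AT5G42720 at -0.303 at the lower. In tunicamycin the smallest mean levels that passed were 5.68 CPM for PUB54 in ire1b and 5.42 CPM for NAC094 in ire1a1b. The nearest below 5 CPM were AT5G40000 at 1.85 CPM and AT3G27027 at 4.92 CPM.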

How the data were processed

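RNA-seq libraries were compared as deposited counts, 1 whole-number table per library. Per the submitters' processing notes the authors used STAR 2.4.0, HTSeq 0.6.0 and DESeq2 with the TAIR10 build. Summary lines that name no gene (no feature 1.20 to 1.42% of gene counts and summary lines together, ambiguous 1.09 to 1.23%, not unique 3.33 to 3.71%) stayed out of totals and tests.

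CPM were computed here from the deposited counts. Tests used edgeR 4.0.16 in R 4.3.3 (quasi-likelihood, robust, TMM, a mean for each of the 6 groups, all 18 libraries), on 20615 genes left by filterByExpr, with Benjamini-Hochberg adjustment over all of them and calls at 0.05; 7 comparisons were fitted. The fitting was tested on simulated data. Alternatives were DESeq2 1.42.0, RLE scaling, no filter, a replicate block, single libraries left out, the 4 replicate 1 libraries of WT and ire1a1b left out (added after seeing the data), and other settings of the rule. Equal replicate numbers deviated together in the residuals, with correlations of 0.16 to 0.21 between the mutants in TM, 0.50 to 0.69 in WT, 0.15 to 0.32 in ire1b and 0.42 to 0.72 in ire1a1b between treatments, 0.34 to 0.84 for the ire1a1b response against WT, but down to 0.05 for that of ire1b and 0.01 between the mutants in DMSO.

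Members, gene lists and families were chosen with earlier results of these data known. Named members are those with the 12 largest smaller mutant changes, the 8 highest TM means, those on lists, called between mutants, with extreme WT to mutant ratios in DMSO, nearest a threshold, or beside another member; others were named by role after their values were seen. Coordinates and sequences are from RefSeq TAIR10.1, matched by locus (26719 of 27416), with Python 3.11.15 and Biopython 1.88. CPM are not divided by gene length, so levels are not compared between genes.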

Additional observations from a re-analysis of the deposited data

How the results depend on the processing

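The number of genes meeting the rule stayed within 1.5 times under all alternatives run: 102 with TMM-scaled CPM (86 of the members kept), 89 and 95 with pseudocounts of 0.5 and 2 (88 and 85 kept), 105 without the minimum level, 63 with a WT window of 0.2, 86 to 94 without one replicate number (75 to 78 kept), and 72 (without WT TM replicate 1, 67 kept) to 107 (without WT TM replicate 3, 83 kept) without one library. Which genes met the rule moved more than their number did. Without WT DMSO replicate 1 the rule again gave 93 genes, but 18 members were lost and 18 other genes gained. The replicate block moved the called genes from 564 to 1187 between the mutants in TM, from 2453 to 4142 for TM in WT, from 3064 to 4844 for TM in ire1a1b, from 855 to 1567 for the response of ire1b against WT and from 1262 to 2341 for that of ire1a1b, and less for TM in ire1b, 4639 to 6491, and between the mutants in DMSO, 33 to 40. Members called between the mutants in TM were 4, 7 with DESeq2 (775 of all tested genes), 12 with the replicate block and 0 to 3 without one library. The cause was not tested. Without one library, genes called between the mutants in TM were 344 to 441 and for TM in WT 1553 (without WT TM replicate 2) to 2380, with 1606 without WT TM replicate 3. Of 504 alternative values for the changes of the 42 named members, 494 moved by less than 1 SD, 10 by more, and 0 reversed. When the 4 outlying libraries (replicate 1 of WT and of ire1a1b) were left out, an alternative added after seeing the data, called genes moved from 855 to 1295 for the response of ire1b against WT, and members called between the mutants in TM from 4 to 7. With 3 libraries per group, a difference between the mutants as large as -1.22 ± 0.34 (AT1G71140) was not called.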
